A study of Mus musculus with 4 samples.

Results

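The upper layers of the cerebral cortex of *Nf1*+/- mice were picked out of brain sections by the transcripts of their marker genes, and the spots that carried them were compared with the rest of each section. Fresh frozen, OCT-embedded brain had been cut at 10 µm, and 4 sections, called sections 1 to 4 here, were placed on Visium slides, where each barcoded spot captures polyadenylated RNA from the small patch of tissue above it. All 4 sections carried the *Nf1*+/- genotype (1 mutant allele of the neurofibromin gene in every cell), no treatment was given in the labels, and wild-type brain was not analysed here, so no genotypes are compared. The age of the animals and the number of animals behind the 4 sections are not given in the labels, so n counts sections. The p-values set the difference between groups of spots within a section against how much it varies from section to section, which may be technical in part.

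Spots with at least 500 unique molecular identifiers (UMIs) were used, 7620 of 7668. For each, the UMIs of 7 upper-layer genes (*Cux2*, *Lamp5*, *Rasgrf2*, *Calb1*, *Stard8*, *Rorb* and *Cux1*) were set against the number that the total of the spot predicts, and the score was observed minus expected, divided by the square root of expected. A spot was called an upper-layer spot at a score of at least 3, with at least 3 of the 7 genes detected and at least 3 UMIs of *Slc17a7*, the vesicular glutamate transporter of cortical excitatory neurons. There were 469 of them: 35 of 1537 in section 1, 187 of 2358 in section 2, 126 of 2294 in section 3 and 121 of 1431 in section 4. They made up 2.28%, 7.93%, 5.49% and 8.46% of the spots (mean 6.04% ± 2.82, SD, n = 4 sections), with exact 95% intervals of 1.59 to 3.15%, 6.87 to 9.10%, 4.60 to 6.51% and 7.07 to 10.0%, which cover counting error only. Section 1 therefore held a smaller share than any other. A spot is a region that can hold several cells, and no cell type was assigned to it.

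The layers above the cortical output layers hold the neurons through which cortical areas speak to each other. Layers 2 and 3 send axons to other cortical areas and across the corpus callosum, and layer 4 receives the axons of the sensory thalamus. These excitatory neurons share the transcription factors *Cux1* and *Cux2*, *Rorb* is strongest in layer 4, and *Lamp5*, *Rasgrf2* and *Calb1* are known from layers 2 and 3. The deep layers, 5 and 6, project to the striatum, brainstem, spinal cord and thalamus, use a different set of factors (*Fezf2*, *Tbr1*, *Foxp2*), and lie closer to the white matter.

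The genes of the rule are described without a test, since they chose the spots. *Cux2* had 67.8, 75.7, 82.1 and 88.8 UMIs per 1000000 UMIs of the group (CPM) in the upper-layer spots of sections 1 to 4 against a mean of 18.4 ± 3.43 in the other spots (SD, n = 4 sections). *Lamp5* averaged 539 ± 133 CPM against 131 ± 27.7, *Rasgrf2* 207 ± 25.5 against 58.9 ± 9.39, and *Stard8* 44.4 ± 14.3 against 10.5 ± 2.95. *Calb1* (357 ± 8.78 against 171 ± 18.1), *Cux1* (117 ± 20.1 against 54.6 ± 3.45) and *Rorb* (59.9 ± 26.1 against 24.8 ± 6.01) stood closer to the other spots, and *Rorb* varied most between sections. *Slc17a7* averaged 733 ± 109 CPM in upper-layer spots and 415 ± 58.2 in the others, but 1134 ± 131 in deep-layer spots. The 5 marker genes given for the region (*Cux2*, *Lamp5*, *Rasgrf2*, *Rorb* and *Slc17a7*) all belong to the rule, so their levels do not check its name. Layer markers outside the rule are described below. They can vary across the brain with the score genes, so they describe the region and do not test its name either. At the threshold, the lowest score inside was 3.09, 3.004, 3.03 and 3.03 in the 4 sections and the highest score outside was 2.97, 2.98, 2.92 and 2.97.

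**Figure D1:**
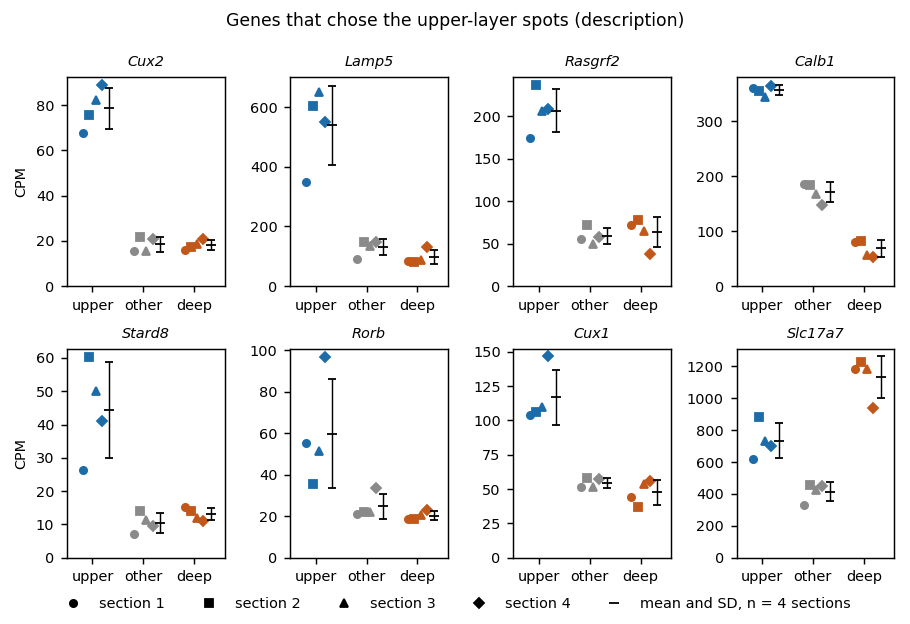
Level of each gene of the rule in CPM (vertical axis, from 0) in upper-layer, other and deep-layer spots, with 1 symbol per section and the mean and SD over 4 sections beside them. The 7 score genes are highest in the upper-layer spots of every section, whereas *Slc17a7* is highest in deep-layer spots (mean 1134 CPM against 733), and these genes chose the spots.

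2 features of the spots move with the grouping. The upper-layer spots were deeper, with medians of 22463, 26081, 14399 and 18655 UMIs in sections 1 to 4 against 14735, 14823, 8600.5 and 11645 in the other spots, a ratio of 1.52 to 1.76. Section 1 stood apart from the others. Its upper-layer spots held 1339 summed CPM of 10 striatal markers against 382 to 735 in sections 2 to 4, 1456 against 550 to 893 summed CPM of 12 deep-layer markers outside the rules, and 2082 against 1205 to 1349 summed CPM of 10 oligodendrocyte markers. Of the 78 spots of section 1 that reached the score, 40 had fewer than 3 UMIs of *Slc17a7* and were left out by it, against 9 of 197, 17 of 149 and 5 of 128 in sections 2 to 4. The sections shared between 427 and 1989 spot barcodes per pair, and section totals ran from 19261710 to 37002379 UMIs. Results that rest on section 1 are given without it too.

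Which genes, outside the 8 that chose the spots, set upper-layer cortex apart from the rest of the section? Counts of each section were added up separately for upper-layer and other spots, and these 8 sums went into the quasi-likelihood test of edgeR, with the section as a block. Of 14245 genes tested, 2022 were higher in upper-layer spots and 2206 lower at an adjusted p under 0.05, which is 14.2% and 15.5% of the genes (29.7% in either direction), and the median log2 fold change of all genes was −0.031. CPM in the 4 upper-layer sums lay wholly above those in the 4 other sums for 1520 genes (10.7%) and wholly below for 1383 (9.71%). Other excitatory markers and calcium-signalling genes were higher, together with a few interneuron genes, and markers of striatum, myelin and the deep layers were lower. Since genes that vary across the brain with the 7 score genes must differ in spots chosen by them, these calls describe the region and do not test the rule. In sums over spots, fewer cells of a type and less RNA per cell cannot be told apart. Without section 1, 1979 genes were higher and 2099 lower.

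A second comparison asked what differs within cortex. Deep-layer spots were taken by the same rule with *Rprm*, *Hs3st4*, *Foxp2*, *Tle4*, *Fezf2*, *Tbr1* and *Syt6* as the score genes, and there were 84, 94, 76 and 92 of them. Their medians were 19103.5, 12609, 8893.5 and 14094 UMIs, below those of the upper-layer spots in every section, so depth moves with this grouping too. The 1 spot of section 1 that passed both rules was left out of both sums, so section 1 enters with 34 upper-layer spots here, while the upper-layer levels printed once for both comparisons include that spot. Of 10516 genes tested by edgeR, 733 were higher in upper-layer than in deep-layer spots (6.97%) and 703 lower (6.69%; 13.7% in either direction), with a median log2 fold change of −0.005 over all genes. CPM did not overlap for 528 genes that were higher (5.02%) and 707 that were lower (6.72%). Both comparisons use the same upper-layer sums, so their values are set side by side and not counted as 2 observations. The deep-layer spots were chosen by 7 deep-layer genes, so genes that vary across the brain with these must differ too. The calls against deep-layer spots therefore describe the regions and do not test either rule. Without section 1, 779 were higher and 733 lower. A gene that is rare in 1 of the groups can pass the filter on low counts through the other group alone. Little but 1 direction could then be called.

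Markers of layers 2 to 4 that the rule did not use were mostly higher than in deep-layer spots, and deep-layer markers were mostly lower in both comparisons. Against other spots, most layer 4 markers were higher, but most markers of layers 2 and 3 were not. Of 12 further genes known from layers 2 and 3, 5 were higher and 1 lower against the other spots (median log2 fold change 0.11), and 8 of the 11 that could be tested were higher and none lower against deep-layer spots (median 0.70). Of 7 further genes of layer 4, 5 were higher and 1 lower against the other spots (median 0.80), and 4 of 5 were higher against deep-layer spots (median 0.76; 2 without section 4, and 2 by DESeq2, which also called 5 of the 11 genes of layers 2 and 3). When the other spots had at least 3 UMIs of *Slc17a7*, 6 genes of layers 2 and 3 were higher and 2 lower (median 0.42). Of the 7 genes of layer 4, 3 were then higher and 1 lower (median 0.58). Of 12 further deep-layer genes, none was higher and 8 were lower against the other spots (median −1.08), and 8 of 11 were lower against deep-layer spots (median −1.21). Over all genes the shares called higher and lower were 14.2% and 15.5% in the first comparison and 6.97% and 6.69% in the second, as given above. The counts of every gene list below are to be read against these shares.

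*Tmem215* (ENSMUSG00000046593, chr4:40472180-40475653 in GRCm38.p6), a transmembrane protein gene listed with layer 4, was at 22.6, 40.2, 44.6 and 60.2 CPM in the upper-layer spots of sections 1 to 4, at 6.84, 9.32, 8.72 and 10.9 in the other spots and at 9.39, 4.69, 10.97 and 11.2 in the deep-layer spots. Every upper-layer value lay above every value of both other groups. Its log2 fold change was 2.19 (SE 0.12, adjusted p = 1.96e-14) against the other spots and 2.26 (SE 0.21, adjusted p = 1.24e-11) against the deep-layer spots by edgeR. *Rspo1* (chr4:124986401-125009102), a secreted activator of Wnt signalling, was at 21.3, 21.5, 28.3 and 45.7 CPM in upper-layer spots, 6.84, 12.01, 10.95 and 11.3 in other spots and 2.93, 3.13, 4.39 and 6.29 in deep-layer spots, where only 22 UMIs were counted in all. Its sums did not overlap either, and section 4 was the highest of the upper-layer values. By edgeR the log2 fold change was 1.35 (SE 0.16, adjusted p = 7.44e-08) and 2.84 (SE 0.26, adjusted p = 1.17e-11) in the same order. Against deep-layer spots, *Rspo1* passed the filter on low counts through the upper-layer spots, so little but a rise could be called.

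*Nectin3* (chr16:46387665-46498535), a cell adhesion molecule of the upper layers, was at 12.5, 26.7, 36.99 and 34.6 CPM, with 8.29, 9.72, 11.3 and 9.40 CPM in other spots and 9.39, 7.04, 10.97 and 8.38 in deep-layer spots. Section 1 gave the lowest upper-layer value, and no value overlapped. The log2 fold change was 1.52 (SE 0.14, adjusted p = 6.82e-10) against the other spots and 1.67 (SE 0.23, adjusted p = 2.96e-07) against the deep-layer spots by edgeR. *Kitl*, the ligand of the receptor tyrosine kinase Kit, stood at 66.5, 70.7, 70.7 and 88.8 CPM in upper-layer, 26.2, 32.9, 31.5 and 32.5 in other and 37.6, 31.3, 32.9 and 25.8 in deep-layer spots. Neither comparison overlapped, and the log2 fold changes were 1.20 and 1.26 (edgeR adjusted p = 2.56e-12 and 1.88e-09).

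*Ccn3*, a secreted matricellular protein, was at 86.6, 91.2, 101 and 94.3 CPM in upper-layer, 34.2, 35.96, 35.7 and 52.5 in other and 67.5, 59.4, 55.96 and 85.9 in deep-layer spots. It therefore stood well above the other spots but less far above the deep layers. There the values overlapped once the spot of both rules was left out (81.4 CPM in section 1). The log2 fold changes were 1.20 (SE 0.09, adjusted p = 7.36e-12) and 0.47 (SE 0.11, adjusted p = 0.00236) by edgeR, and the second call was lost without section 3. *Pou3f2*, a POU-domain factor of upper-layer neurons, had 17.6, 24.3, 22.3 and 27.3 CPM against 8.56, 12.5, 12.99 and 12.3 and 8.22, 11.7, 5.49 and 10.5 (log2 fold change 0.93 and 1.34, edgeR adjusted p = 1.03e-06 and 2.18e-05). *Otof*, which encodes the calcium sensor otoferlin, was rare, at 13.8, 13.9, 8.70 and 9.39 CPM against 8.996, 6.57, 5.25 and 2.36 and 4.11, 4.69, 4.39 and 0.698. Its upper-layer values overlapped those of the other spots, since the other spots of section 1 were at 8.996 CPM, but not those of deep-layer spots, and edgeR gave 1.04 (SE 0.19, adjusted p = 8.71e-05) and 1.82 (SE 0.36, adjusted p = 1.76e-04).

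*Unc5d*, a netrin receptor, and *Zmat4*, a zinc finger gene, were higher in both comparisons as well. *Unc5d* rose by 1.01 against the other spots (adjusted p = 9.57e-08) and by 0.76 against the deep-layer spots (adjusted p = 0.00186, edgeR), the latter lost without section 4. *Zmat4* gave 0.50 and 0.53 (edgeR adjusted p = 0.00116 and 0.0442), and its call against deep-layer spots was lost without section 1 or section 4. Together with the 7 genes above, these are the 9 layer genes higher in both comparisons. *Kcnh5*, a potassium channel, was higher than in the other spots at 0.80 (SE 0.29, adjusted p = 0.0364) by edgeR, and lost the call without section 1, 3 or 4. *Wfs1*, an endoplasmic reticulum protein, was higher than in deep-layer spots at 1.23 (SE 0.13, adjusted p = 6.07e-10), from 138, 94.4, 67.997 and 74.7 CPM against 59.9, 53.96, 26.3 and 22.3.

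*Penk*, which encodes the opioid precursor proenkephalin and marks striatal neurons as well as some of layers 2 and 3, was lower than in the other spots, at 542, 308, 273 and 113 CPM against 1121, 1289, 1282 and 924 (log2 fold change −2.12 ± 0.14 SE, adjusted p = 1.22e-12, edgeR). Section 1 was highest of the upper-layer spots and section 4 lowest, in the order of their summed striatal markers, whose part in this was not tested. *Whrn*, a PDZ scaffold listed with layer 4, was lower too (−0.84 ± 0.13 SE, adjusted p = 1.34e-05, edgeR).

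**Figure D2:**
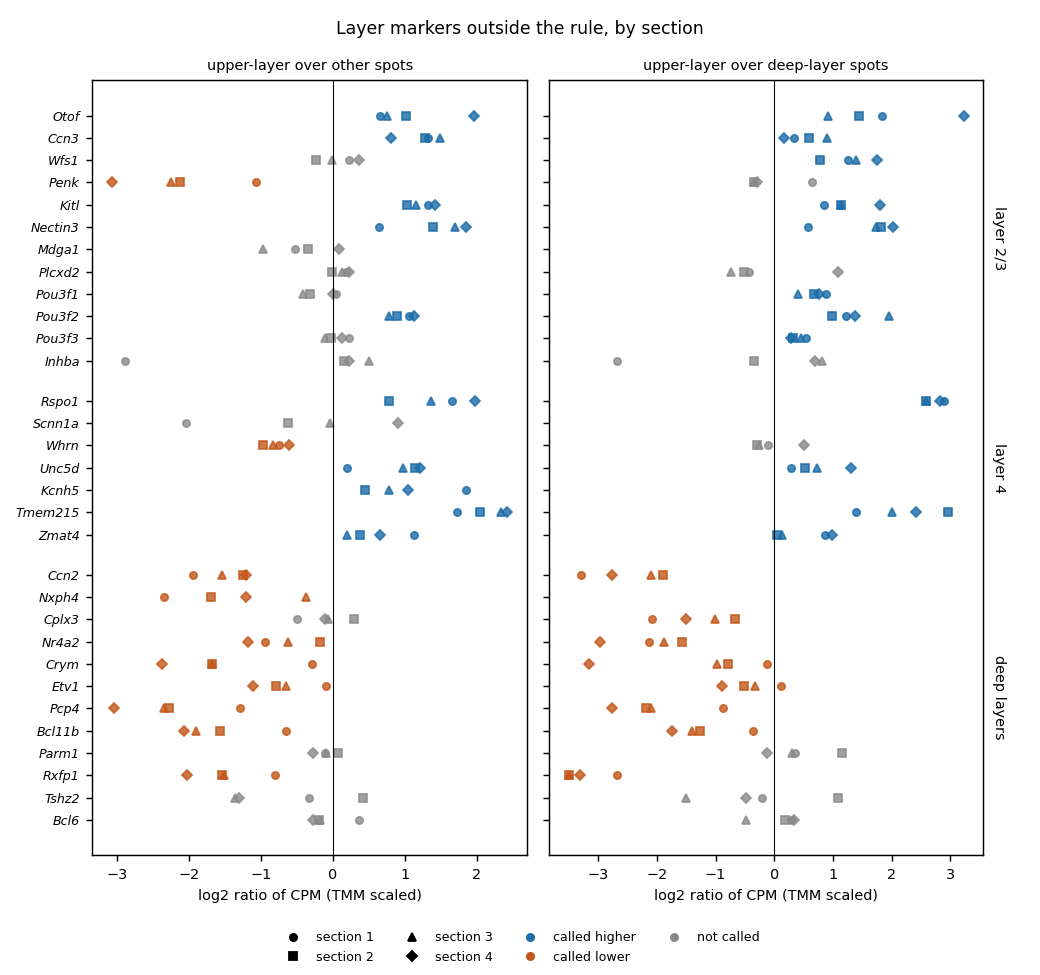
Log2 ratio of CPM (horizontal axis, TMM scaled) of upper-layer spots over other spots (left) and over deep-layer spots (right) for the layer markers outside the rule, with 1 symbol per section and the colour giving the edgeR call. Markers of layers 2 to 4 called in both panels lie to the right in all 4 sections and called deep-layer markers lie to the left in nearly all, and *Penk* and *Whrn* were called lower against other spots only.

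Promoters of the 9 layer genes higher in both comparisons were searched for E-boxes, the elements bound by basic helix-loop-helix factors such as *Neurod2* and *Neurod6*, in the 250 bases before each RefSeq transcript start (GRCm38.p6). The letters were CAGATG and CAGCTG on both strands. Of 32851 such windows in the genome, 14.4% held the first, 13.0% the second and 25.5% either. Windows were given for 5 of the 9 genes (6 windows), and 2 of the windows held either motif, both of them at *Tmem215*, the gene with the largest difference against other spots among the 9. A match in 2 of 6 windows is a description and not a binding site. The window before the first start of *Tmem215* (chr4:40471930-40472179, + strand) is shown because it belongs to that gene, with the match in capitals (CAGATG read on the other strand).

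*Tmem215* upstream: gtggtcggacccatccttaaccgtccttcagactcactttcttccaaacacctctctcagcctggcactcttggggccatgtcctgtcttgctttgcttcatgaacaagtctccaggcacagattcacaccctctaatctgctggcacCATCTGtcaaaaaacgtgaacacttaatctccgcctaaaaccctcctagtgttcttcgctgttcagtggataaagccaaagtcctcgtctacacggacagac

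Deep-layer genes were mostly lower against both backgrounds. The deep-layer spots were chosen by genes of this kind, so the falls against them are a description and not a test. *Pcp4* (chr16:96467606-96525793), a calmodulin regulator of layers 5 and 6 and of striatum, was at 1121, 644, 636 and 392 CPM in upper-layer spots, 2694, 2974, 3206 and 3149.7 in other spots and 2135, 2884, 2817 and 2723 in deep-layer spots. No values overlapped, and section 1 was highest among the upper-layer spots. The log2 fold change was −2.25 (SE 0.13, adjusted p = 1.04e-13) and −1.997 (SE 0.13, adjusted p = 3.19e-16) by edgeR. *Ccn2*, a marker of layer 6b, was lower by both tests (−1.39 and −2.45, edgeR adjusted p = 2.10e-08 and 1.47e-13), as was *Nr4a2*, an orphan nuclear receptor of the deepest layer and claustrum (−0.67 and −2.22, edgeR adjusted p = 4.40e-04 and 3.46e-14). *Cplx3*, a complexin of subplate-derived neurons, was lower than in deep-layer spots (−1.21 ± 0.17 SE, adjusted p = 7.99e-07). Of the 7 genes of the deep-layer score, 6 were lower than in the other spots (median of the 7 −1.21), among them *Foxp2* (−2.43) and *Syt6* (−2.02). The seventh, *Tbr1*, was higher at 0.68 (SE 0.07, adjusted p = 4.05e-09) by edgeR, from 95.4, 111, 139 and 143 CPM against 58.3, 67.7, 72.02 and 96.9, although its mean of 122 CPM in upper-layer spots was under the 273 CPM of deep-layer spots, where it chose the spots, and its log2 fold change was −0.0138 when the other spots had at least 3 UMIs of *Slc17a7*.

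Genes that excitatory neurons of all cortical layers use were higher than in the other spots, and divided against the deep layers. Of 12 such genes, 9 were higher and 2 lower against other spots (median 0.76), and 6 were higher and 3 lower against deep-layer spots (median 0.23). Without section 2 or without section 4, 3 were higher, and by DESeq2 1 was. Over all genes, 539 of 10599, 541 of 10333 and 287 of 10516 were higher, in the same order. The rule asked for at least 3 UMIs of *Slc17a7* in upper-layer spots only. Against other spots that had them too, 7 of the 12 were higher and 1 lower (median 0.25). *Mef2c*, an activity-regulated factor, was at 322, 491, 417 and 527 CPM in upper-layer, 142, 218, 194 and 256 in other and 278, 248.7, 226 and 309 in deep-layer spots, with log2 fold changes of 1.08 (SE 0.05, adjusted p = 2.18e-15) and 0.76 (SE 0.08, adjusted p = 6.85e-10) by edgeR. None of its upper-layer values overlapped either group. *Emx1*, the homeobox gene of dorsal forebrain, and *Nrn1*, a membrane-anchored neurite growth factor, were higher than in other spots by 1.36 and 1.20 (edgeR adjusted p = 4.86e-10 and 1.66e-15), and *Chn1*, a Rac GTPase-activating protein, by 0.52 (adjusted p = 1.67e-09). Against deep-layer spots *Emx1* (0.61, adjusted p = 0.0209) and *Nrn1* (0.36, adjusted p = 0.0138) were called by edgeR as well, but both lost the call without section 2 or section 4, and *Emx1* also without section 3.

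3 genes of the same list went the other way within cortex. *Nptx1*, a synaptic pentraxin, was at 152, 198, 168 and 164 CPM in upper-layer, 86.5, 107, 92.9 and 114 in other and 297, 331, 278 and 312 in deep-layer spots, higher than the first by 0.73 (adjusted p = 3.31e-10) and lower than the second with −0.82 (adjusted p = 2.04e-11, edgeR). The upper-layer spots thus lay between the other groups without overlap. *Neurod2* followed the same order (0.79 and −0.50, edgeR adjusted p = 2.87e-07 and 0.00197). *Neurod6*, its close relative, was lower than in deep-layer spots (−0.95 ± 0.13 SE, adjusted p = 1.93e-07) and was not called against the other spots (0.09 ± 0.10 SE, adjusted p = 0.572, edgeR), but was called lower when these had at least 3 UMIs of *Slc17a7* (−0.62, adjusted p = 1.33e-06) and at a score of at least 5 (−0.39, adjusted p = 0.0329). *Neurod2* and *Nptx1* were not called when the other spots were limited to those with at least 3 UMIs of *Slc17a7*.

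Transcripts of genes for calcium signalling through calmodulin and CaMKII, which excitatory synapses use for plasticity, were mostly higher. Of 15 genes, 10 were higher and 1 lower against other spots (median 0.39), and 9 were higher and 1 lower against deep-layer spots (median 0.26). *Camk2n1* (chr4:138455148-138460126), an inhibitor of CaMKII, was at 2532, 3381, 2773 and 3547 CPM in upper-layer, 1136, 1647, 1360.4 and 1588 in other and 1267, 1344, 1168 and 1198 in deep-layer spots. Every upper-layer value lay above every other value, a log2 fold change of 1.06 (SE 0.05, adjusted p = 1.66e-15) and 1.32 (SE 0.08, adjusted p = 1.34e-17) by edgeR. *Camk2a*, the kinase itself, (452, 857, 547 and 824 CPM) overlapped both groups in its raw levels, since section 1 was low in all 3 groups, and was higher within sections by 0.82 and 0.77 (adjusted p = 2.94e-13 and 1.87e-10, edgeR). *Nrgn* (chr9:37544493-37552745), neurogranin, which binds calmodulin in dendrites, gave 1.08 and 0.73 (edgeR adjusted p = 7.92e-16 and 4.56e-10).

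Among glutamate receptor genes, the NMDA receptor subunits *Grin2a* and *Grin2b* were higher and the kainate receptor subunit *Grik3* lower in both comparisons. Of 22 genes, 5 were higher and 9 lower against other spots (median −0.12), and of 20 tested 4 were higher and 3 lower against deep-layer spots (median 0.11). Over all genes, 14.2% were higher and 15.5% lower in the first comparison, and 6.97% and 6.69% in the second. *Grin2a* was at 117, 167, 143 and 172 CPM in upper-layer, 62.4, 90.996, 76.04 and 94.6 in other and 89.8, 131, 86.7 and 120.1 in deep-layer spots (0.84 ± 0.06 SE, adjusted p = 3.78e-12, and 0.51 ± 0.09 SE, adjusted p = 4.82e-05, edgeR). It did not overlap the other spots but did overlap the deep-layer spots, where section 1 was again the lowest of the upper-layer values. *Grin2b* differed by 0.53 and 0.59 (edgeR adjusted p = 9.37e-07 and 2.45e-04), and *Grm2*, a presynaptic metabotropic receptor, by 0.90 and 1.18 (edgeR adjusted p = 1.73e-06 and 2.40e-05). *Grik3* stood at 20.1, 19.9, 15.2 and 18.4 CPM against 31.7, 37.2, 29.3 and 36.8 in other and 53.4, 61.002, 54.9 and 67.7 in deep-layer spots, lower without overlap in both (−0.96 ± 0.11 SE, adjusted p = 4.73e-08, and −1.68 ± 0.15 SE, adjusted p = 5.73e-12, edgeR).

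Subunits of the GABA-A receptor, the main inhibitory receptor, also differed in kind. Of 12 tested, 6 were higher and 3 lower against other spots (median 0.27), and of 11 tested 4 were higher and 1 lower against deep-layer spots (median 0.05). *Gabra2*, the alpha-2 subunit, was at 75.3, 84.4, 84.9 and 75.98 CPM in upper-layer, 68.8, 68.8, 57.6 and 62.1 in other and 47.5, 50.8, 35.1 and 42.6 in deep-layer spots. Its upper-layer values overlapped neither group. The log2 fold changes were 0.29 and 0.86 (edgeR adjusted p = 0.00305 and 7.99e-07), and the first call was lost without section 3. *Gabra5*, which forms extrasynaptic receptors, was lower in both (−0.46 ± 0.11 SE, adjusted p = 0.0014, and −0.98 ± 0.15 SE, adjusted p = 2.84e-06, edgeR).

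Interneuron genes gave a mixed picture against the other spots and, among the called genes, 1 direction against the deep layers. Of 15 genes, 6 were higher and 4 lower against other spots (median −0.17, which turned to 0.17 when only other spots with at least 3 UMIs of *Slc17a7* were used), and of 14 tested 10 were higher and none lower against deep-layer spots (median 0.64). *Vip* (chr10:5639193-5647617), the peptide of interneurons that inhibit other interneurons, was at 86.6, 101, 170.3 and 136 CPM in upper-layer, 19.3, 33.8, 41.98 and 41.97 in other and 89.8, 35.2, 20.8 and 37.7 in deep-layer spots. Every upper-layer value was above the other spots, but in section 1 the deep-layer spots were level with the upper-layer spots (90.6 CPM in upper-layer spots once the spot of both rules was left out). By edgeR the log2 fold change was 1.76 (SE 0.08, adjusted p = 1.86e-15) against other and 1.47 (SE 0.18, adjusted p = 1.70e-08) against deep-layer spots. *Pvalb*, of fast-spiking interneurons, was at 287, 254, 334 and 298 CPM, above 92.7, 139, 184 and 198 and 124, 109, 113 and 149 without overlap (0.88 ± 0.09 SE, adjusted p = 2.77e-09, and 1.27 ± 0.09 SE, adjusted p = 1.15e-15, edgeR).

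*Cck*, the cholecystokinin peptide, which excitatory neurons make too, was at 1387, 1675, 1811 and 1585 CPM in upper-layer, 466, 721, 729.8 and 809 in other and 1118, 1182, 937 and 1327 in deep-layer spots, higher in both (1.22 and 0.54, edgeR adjusted p = 1.04e-14 and 2.09e-06). *Htr3a*, the ionotropic serotonin receptor, rose by 1.84 against other spots (adjusted p = 1.95e-06), *Adarb2*, which marks the same interneuron class, by 0.56 (adjusted p = 0.0184) and by 1.26 against deep-layer spots (adjusted p = 0.0069, edgeR). Without section 2, *Adarb2* was called in neither comparison, and without section 3 it was not called against other spots. *Npy* was higher in both (0.42 and 0.74, edgeR adjusted p = 3.57e-06 and 7.86e-08), and *Calb2* and *Reln* were higher than in deep-layer spots (1.19 and 0.49, adjusted p = 2.63e-04 and 0.0336, edgeR), *Reln* only with sections 2, 3 and 4 all in the fit. *Sst* was lower than in other spots (−0.33 ± 0.07 SE, adjusted p = 4.13e-04).

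The general GABA genes changed sides with the reference. *Gad1*, the main GABA-synthesising enzyme, stood at 341, 296, 287 and 254 CPM in upper-layer, 364, 372, 397 and 330.1 in other and 188, 171, 139 and 139.7 in deep-layer spots. It was lower than in the other spots (−0.37 ± 0.06 SE, adjusted p = 6.87e-06, edgeR) and higher than in the deep-layer spots (0.91 ± 0.08 SE, adjusted p = 2.14e-12, edgeR). *Slc32a1*, the vesicular GABA transporter, did the same (−0.91 and 0.74, edgeR adjusted p = 2.64e-10 and 2.05e-06). The other spots include striatum, whose projection neurons use GABA: the 10 striatal markers summed to between 2008 and 2815 CPM there and between 382 and 1339 in upper-layer spots, and their part in the difference was not tested. Among other spots with at least 3 UMIs of *Slc17a7*, *Gad1* was not called.

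**Figure D3:**
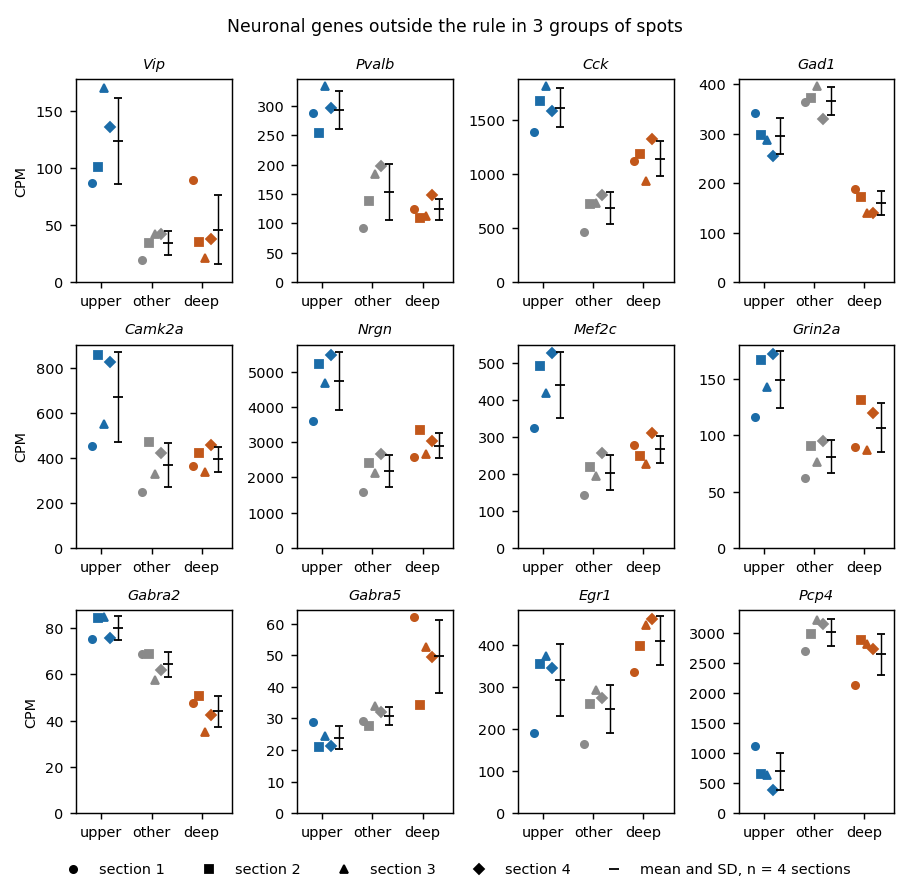
Levels in CPM (vertical axes, from 0) of 12 neuronal genes outside the rule in upper-layer, other and deep-layer spots, 1 symbol per section, with the mean and SD over 4 sections. *Pvalb*, *Cck*, *Nrgn*, *Mef2c* and *Gabra2* are highest in upper-layer spots in all 4 sections, *Gad1* lies between other and deep-layer spots, and *Gabra5* and *Pcp4* are lowest in upper-layer spots.

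Immediate early genes, which neurons switch on within minutes of firing, were higher than in the rest of the section but not higher than in the deep layers. Of 16, 13 were higher and none lower against other spots (median 0.31), and none was higher and 4 were lower against deep-layer spots (median −0.15). Over all genes, sums were free of overlap for 10.7% higher and 9.71% lower against other spots, and for 5.02% and 6.72% against deep-layer spots. For these 16, no member's sums were free of overlap in either comparison. Against other spots, 7 of the 16 were higher without section 2 and 8 by DESeq2, beside 1503 of 14186 and 1493 of 14245 genes. The summed level of the 16 in upper-layer spots was 727 CPM in section 1 and 1410 to 1553 in sections 2 to 4, beside 656 and 1100 to 1199 in the other spots and 1128 and 1483 to 1801 in the deep-layer spots. Section 1 was thus low in all 3 groups. *Egr1*, a zinc finger factor, was at 189, 355, 374 and 345 CPM in upper-layer, 165, 258, 293 and 274 in other and 334, 397, 447 and 461 in deep-layer spots (0.32 ± 0.05 SE, adjusted p = 2.61e-05, and −0.35 ± 0.08 SE, adjusted p = 7.13e-04, edgeR). *Arc*, which trims synaptic AMPA receptors, lay between the groups in the same way (0.31 and −0.54, edgeR adjusted p = 2.98e-04 and 7.47e-06). *Fos* was at 10.04, 46.8, 71.8 and 71.3 CPM against 17.7, 38.9, 49.8 and 58.9 and 38.2, 60.2, 96.6 and 97.8 (0.25 ± 0.09 SE, adjusted p = 0.0391, and −0.51 ± 0.13 SE, adjusted p = 0.00434, edgeR), and its first call was lost without section 2, 3 or 4. *Bdnf*, the neurotrophin, stood out in the list against other spots, at 10.04, 30.1, 40.3 and 29.03 CPM against 7.85, 9.29, 14.1 and 12.6 (1.38 ± 0.13 SE, adjusted p = 2.62e-09, edgeR). When the other spots had at least 3 UMIs of *Slc17a7*, 6 of the 16 were higher (median 0.05; 1169 of 13262 over all genes), and *Egr1*, *Fos* and *Arc* were not among the 6.

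Myelin markers and many other non-neuronal markers were lower than in the rest of the section. All 10 oligodendrocyte markers were lower against other spots (median −1.55) and against deep-layer spots (median −1.35). *Mbp*, myelin basic protein, was at 952, 600.1, 671 and 570.3 CPM in upper-layer, 1795, 1228, 1922 and 1669 in other and 1463, 1608, 1650.3 and 1685 in deep-layer spots (−1.296 ± 0.07 SE, adjusted p = 3.61e-14, and −1.20 ± 0.09 SE, adjusted p = 4.91e-14, edgeR). No *Mbp* value overlapped. Of 7 genes of newly formed oligodendrocytes, 5 were lower against other spots (median −0.51) and 2 of 5 tested against deep-layer spots (median −0.37). Of 8 markers of oligodendrocyte progenitor cells (OPCs), the cells in which the study followed *Nf1*, 6 were lower against other spots (median −0.74) and 2 of 6 tested against deep-layer spots (median −0.30). The calls of both lists against deep-layer spots rested on single sections, with 1 new-oligodendrocyte gene lower without section 2 or section 4, and no OPC gene without section 2 and 1 without section 3 or section 4. Calls over all genes fell as well, from 703 of 10516 lower to 469 of 10599 without section 2. They were 543 of 10552 without section 3 and 501 of 10333 without section 4. With other spots matched on total UMIs, all 10 oligodendrocyte markers were lower (median −0.89), beside 959 of 11198 genes. So were 2 of 6 new-oligodendrocyte genes (median −0.08) and 4 of 7 OPC genes (median −0.61). *Pdgfra*, the growth factor receptor of OPCs, was at 21.3, 18.3, 21.8 and 23.5 CPM against 28.3, 29.5, 24.1 and 36.3 in other spots, lower without overlap (−0.58 ± 0.11 SE, adjusted p = 2.22e-04, edgeR), and at 20.5, 25.8, 14.3 and 36.3 in deep-layer spots, which was not called (−0.27 ± 0.19 SE, adjusted p = 0.462). *Cspg4*, the NG2 proteoglycan, was lower than in other spots at −0.78 (SE 0.19, adjusted p = 0.00211).

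Of 10 astrocyte genes, 7 were lower against other spots (median −0.20), whereas 3 were higher and 1 lower against deep-layer spots (median 0.21). *Gfap*, the filament protein strongest in white-matter astrocytes, was lower in both (−1.45 ± 0.15 SE, adjusted p = 1.09e-08, and −0.99 ± 0.23 SE, adjusted p = 0.0013, edgeR), from 10.04, 17.5, 7.07 and 6.40 CPM against 32.7, 33.4, 34.4 and 24.9 and 18.2, 27.4, 17.6 and 20.3. Of 8 microglial genes, 7 were lower against other spots (median −0.38) and none was called against deep-layer spots (median 0.14). For endothelium, 4 of 8 were lower (median −0.24) and 0 of 7 called against deep-layer spots (median 0.15). Fibroblast genes were lower in 7 of 10 (median −0.76), ependymal genes in 7 of 8 (median −1.10), choroid plexus genes in 6 of 6 tested (median −2.29) and haemoglobin genes in 4 of 4 (median −1.35) against other spots. These counts depended on single sections: without section 2, 4 microglial, 2 endothelial and 2 fibroblast genes were lower, and without section 3, 4 astrocyte, 4 fibroblast and 2 haemoglobin genes. Calls over all genes fell as well, from 2206 of 14245 lower to 1488 of 14186 without section 2 and 1746 of 14309 without section 3. The counts of these lists fell too with other spots matched on total UMIs, where 959 of 11198 genes were lower. There 2 of 10 astrocyte (median −0.15), 4 of 8 microglial (−0.24), 1 of 8 endothelial (−0.14) and 1 of 5 tested fibroblast genes (−0.19) were lower. Of the ependymal, choroid plexus and haemoglobin genes, 2 of 3, 1 of 1 and 1 of 1 tested were lower. By DESeq2, 2 fibroblast and 2 haemoglobin genes were lower, and against deep-layer spots 1 astrocyte gene was higher without section 1, without section 3 or by DESeq2. Over all genes, DESeq2 called 1300 of 14245 lower against other spots. Against deep-layer spots, 779 of 10629 genes were higher without section 1, 561 of 10552 without section 3 and 287 of 10516 by DESeq2. Against deep-layer spots 1 of 3 fibroblast genes was higher (none without section 2), neither of 2 ependymal genes was called, and no choroid plexus or haemoglobin gene passed the filter on low counts. Choroid plexus markers summed to between 3.81 and 31.4 CPM in upper-layer spots, 17.3 to 163 in other spots and 5.47 to 59.9 in deep-layer spots, with no marker at 0 in the upper-layer spots. Haemoglobin genes summed to between 1.25 and 14.1 CPM in upper-layer and 7.86 to 38.7 in other spots. Members so rare in upper-layer spots can pass the filter on low counts through the other spots alone. Little but a lower call was then possible, so the choroid plexus and haemoglobin counts are a description and not a test. The same holds for the rarest ependymal and fibroblast genes within their counts. *Hdc*, *Foxj1* and *Col3a1* had no UMI in the upper-layer spots of section 1, and *Tmem212* none in those of sections 3 and 4.

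All 10 striatal markers were lower than in other spots (median −2.004). *Drd2*, a dopamine receptor, had 30.1, 16.5, 12.5 and 3.84 CPM against 64.8, 77.5, 63.7 and 52.7 (−2.34 ± 0.15 SE, adjusted p = 9.25e-13), *Adora2a*, an adenosine receptor, 30.1, 15.9, 11.97 and 7.26 against 78.8, 83.1, 79.2 and 77.2 (−2.54 ± 0.14 SE, adjusted p = 1.85e-14), and *Ppp1r1b*, the dopamine-regulated phosphatase inhibitor DARPP-32, gave −1.67 (SE 0.11, adjusted p = 1.63e-12) by edgeR. The values for both receptors did not overlap, and section 1 was highest of the upper-layer spots. Against deep-layer spots 1 of the 10 was higher and 1 lower (median −0.15), but without section 1 none was higher and 5 were lower (median −0.42). Of 8 subcortical genes tested, 3 were higher and 4 lower than in other spots (median −0.40), and of 6 tested 4 were higher than in deep-layer spots (median 0.88). Among them was *Slc17a6*, the vesicular glutamate transporter best known from thalamus, at 18.8, 14.7, 15.8 and 36.7 CPM in upper-layer, 15.7, 7.97, 9.62 and 18.03 in other and 12.3, 3.91, 10.97 and 11.2 in deep-layer spots (0.78 ± 0.13 SE, adjusted p = 3.90e-05, and 1.28 ± 0.24 SE, adjusted p = 9.92e-05, edgeR). Of 4 hippocampal genes tested, 1 was higher and 2 lower than in other spots (median −0.55), and the single one tested against deep-layer spots was higher.

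The 13 protein-coding genes of the mitochondrial genome moved together and in opposite directions in the comparisons. All 13 were lower against other spots (median −0.31) and 12 of 13 were higher against deep-layer spots (median 0.40; 7 without section 3). They summed to 139685, 105865, 127849 and 131586 CPM in upper-layer spots, 156817, 148654, 137869 and 154938 in other spots and 106092, 94797, 92919 and 104551 in deep-layer spots. Within every section the upper-layer spots lay between the other groups, although across sections their range overlapped both. Compared with other spots of like total UMIs, 5 of 13 were lower (median −0.20).

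**Figure D4:**
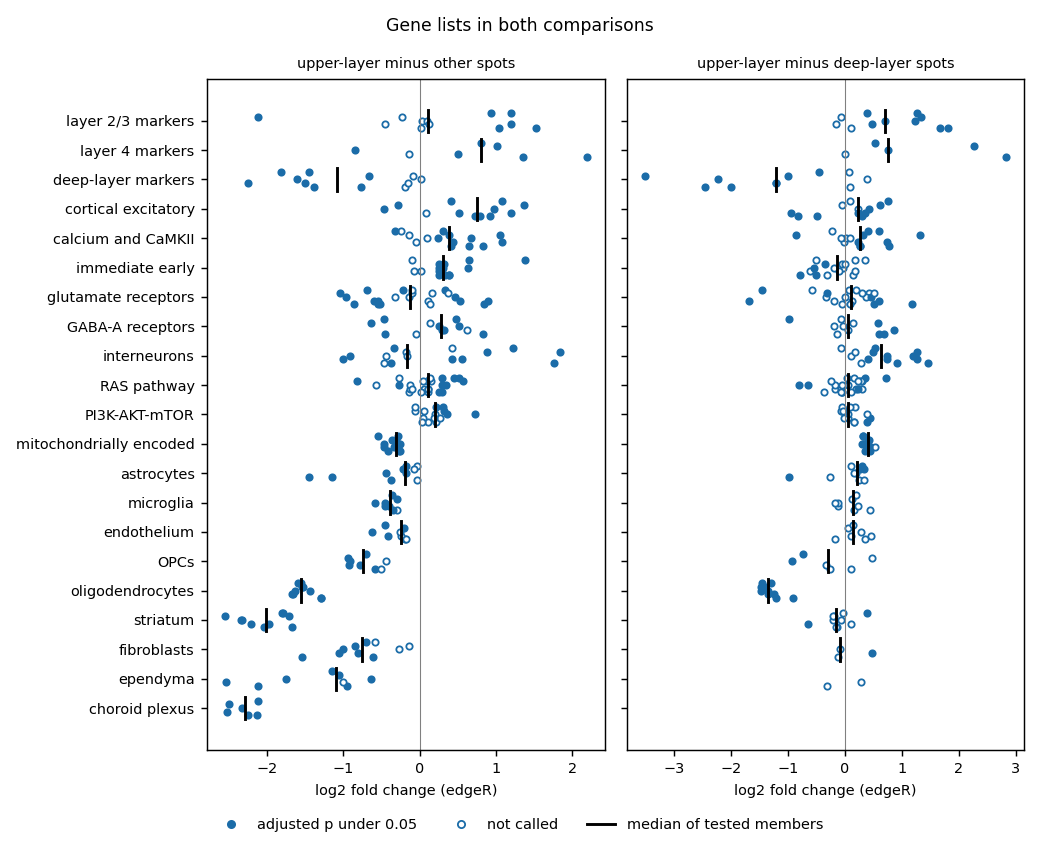
Log2 fold change by edgeR (horizontal axis) of each tested member of 21 gene lists in upper-layer minus other spots (left) and minus deep-layer spots (right), filled where the adjusted p is under 0.05, with the median as a bar where at least 3 members were tested. Layer 4, excitatory and calcium lists lie to the right in both panels, oligodendrocyte and deep-layer lists to the left in both, and mitochondrially encoded genes to the left of 0 in one panel and to the right in the other.

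Neurofibromin, the product of *Nf1*, is a GTPase-activating protein that switches RAS off, so RAS regulators and effectors were counted as a list. Of 25, 8 were higher and 2 lower against other spots (median 0.11), and of 24 tested 3 were higher and 2 lower against deep-layer spots (median 0.05; none higher by DESeq2). These are counts to be read against the 14.2% and 15.5% of all genes called higher and lower in the first comparison and the 6.97% and 6.69% in the second. With other spots of at least 3 UMIs of *Slc17a7*, 5 of 25 were higher and 2 lower (median 0.09), beside 1169 and 1208 of 13262 genes. With other spots matched on total UMIs, 4 of 24 were higher and 3 lower (median 0.05), beside 992 and 959 of 11198 genes. *Nf1* itself (ENSMUSG00000020716) was at 7.53, 4.98, 6.53 and 4.70 CPM in upper-layer, 7.85, 5.10, 6.05 and 6.32 in other and 9.39, 3.91, 8.78 and 9.78 in deep-layer spots, from 54, 570 and 43 UMIs in all. The groups overlapped, with log2 fold changes of −0.14 (SE 0.21, adjusted p = 0.675) and −0.37 (SE 0.33, adjusted p = 0.577) by edgeR. *Rasal1*, a GTPase-activating protein, was higher than in other spots and lower than in deep-layer spots (0.34 and −0.80, edgeR adjusted p = 0.00297 and 1.66e-06). *Rasgrp1*, a calcium- and diacylglycerol-responsive RAS activator, was lower in both (−0.27 and −0.65, edgeR adjusted p = 6.21e-04 and 2.67e-09). *Dusp6*, a phosphatase that ERK signalling induces, was higher by 0.52 against other spots (edgeR adjusted p = 1.78e-06).

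Of 15 genes of the PI3K, AKT and mTOR route, 5 were higher and none lower against other spots (median 0.20), and 2 were higher against deep-layer spots (median 0.06), beside 14.2% and 6.97% of all genes called higher, so the second count is near the background. The 2 were *Akt1*, at 90.6, 89.8, 84.9 and 96.5 CPM against 80.4, 69.6, 66.9 and 66.3, and *Akt2*, at 65.6, 80.8, 73.4 and 79.8 against 49.3, 59.4, 60.4 and 56.6, with log2 fold changes of 0.39 (SE 0.11, adjusted p = 0.00825) and 0.44 (SE 0.12, adjusted p = 0.00554) by edgeR. Upper-layer values were above all deep-layer values in both genes, neither was called by DESeq2, and *Akt1* was not called without section 4. The count against other spots fell from 5 of 15 to 1 when these had at least 3 UMIs of *Slc17a7* (median 0.13), beside 1169 of 13262 genes higher. It fell to 2 with other spots matched on total UMIs (median 0.12), beside 992 of 11198 genes.

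4 further genes that the study names were lower than in other spots or not called. *Ttr*, the transthyretin of choroid plexus, was at 3498, 3.19, 30.5 and 635 CPM in upper-layer, 12538, 7.60, 76.8 and 4166 in other and 4651, 2.35, 20.8 and 859.7 in deep-layer spots, so it varied far more between sections than between groups, and the groups overlapped. Within sections it was lower than in other spots, with −2.17 (SE 0.12, adjusted p = 4.73e-14) by edgeR. Against deep-layer spots edgeR gave −0.31 (SE 0.10, adjusted p = 0.027), but the direction was not shared. *Ttr* was lower in sections 1 and 4 and higher in sections 2 and 3, and the call was lost without section 1 or section 4. *Ecrg4* (−2.18 ± 0.17 SE, adjusted p = 3.62e-11) and *Rarres2* (−1.41 ± 0.14 SE, adjusted p = 6.72e-09) were lower than in other spots. *Enpp2*, autotaxin, which choroid plexus and oligodendrocytes make, was not called against other spots (−0.18 ± 0.16 SE, adjusted p = 0.441; −0.60 and called without section 2) and was higher than in deep-layer spots, at 303, 204, 163 and 247 CPM against 258, 119.7, 93.3 and 193 (0.53 ± 0.09 SE, adjusted p = 7.21e-06, edgeR).

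The largest differences of single genes were in transcripts of low level. *Gm765* (ENSMUSG00000090667, chr6:98238014-98342754) was the largest rise in both comparisons, at 12.5, 34.05, 11.4 and 14.5 CPM in upper-layer, 0.573, 2.81, 1.29 and 1.95 in other and 0, 0, 1.10 and 0.698 in deep-layer spots. The groups did not overlap, and sections 1 and 2 had no *Gm765* UMI in deep-layer spots at all. By edgeR its log2 fold change against other spots was 3.38 (SE 0.19, adjusted p = 6.48e-14). Against deep-layer spots 236 UMIs stood against 2, a ratio of 63.1 with an exact 95% counting interval of 17.3 to 524. *Tspan11*, a tetraspanin, gave 110 against 2 UMIs (ratio 29.4, interval 7.95 to 246) from 6.56, 12.1, 9.25 and 11.5 CPM against 0, 0, 0 and 1.40, with edgeR adjusted p = 1.11e-07. Against deep-layer spots, *Gm765* and *Tspan11* passed the filter on low counts through the upper-layer spots. Little but a rise could be called there.

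The other 9 of the 10 largest rises against other spots were *Mylk3* (2.79), a myosin light chain kinase, *Agmat* (2.64), agmatinase, *Gm47415* (2.59), *Lrg1* (2.39), a secreted glycoprotein, *Gm42865* (2.35), *Rskr* (2.32), *Igfn1* (2.30), *Ntn5* (2.27), a netrin, and *Myhas* (2.24), in log2 fold change. Their levels reached 11.3, 22.1, 28.3 and 27.7 CPM for *Ntn5* against 2.29, 4.63, 4.86 and 6.03, and 5.02, 9.56, 10.3 and 13.2 for *Agmat* against 0.750, 1.66, 1.09 and 2.25, without overlap. Adjusted p ran from 8.64e-13 (*Ntn5*) to 6.18e-05 (*Gm47415*) by edgeR.

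Among the 10 largest falls, *Gm10710* was counted at 0 UMIs in upper-layer spots and 125 in the others, at least 4.54-fold lower when 3 counts over the group are taken as the floor (edgeR adjusted p = 7.16e-04). *Ptpn7*, a tyrosine phosphatase, had 1 UMI against 217 (23.7-fold lower, exact interval 4.20 to 938), and *Cfap161*, a cilia gene, 1 against 177 (19.3-fold, 3.42 to 766). *Cyp2j12*, a cytochrome P450, had 2 against 266 (14.5-fold, 3.97 to 120), and *Htr4*, a serotonin receptor, 2 against 226 (12.3-fold, 3.37 to 102). *Slc18a2*, the vesicular monoamine transporter, had 2 against 185 (10.1-fold, 2.75 to 83.9), *Scn9a*, a sodium channel, 1 against 133 (14.5-fold, 2.56 to 577), *Gm50370* 1 against 150 (16.3-fold, 2.89 to 650) and *Gm11650* 1 against 125 (13.6-fold, 2.40 to 542). *Lbp*, the lipopolysaccharide-binding protein, was at 1.25, 0.398, 0.544 and 0 CPM against 12.6, 2.25, 2.28 and 7.62 (−3.44 ± 0.49 SE, adjusted p = 2.45e-06). The edgeR adjusted p of these 8 genes with 1 or 2 UMIs in upper-layer spots or of *Lbp* was at most 0.00415 (*Scn9a*). Genes this rare in upper-layer spots passed the filter on low counts through the other spots, so little but a fall could be called.

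Within cortex, *Nxph3* (chr11:95509845-95514565), a neurexin ligand of the deepest layer, gave the largest fall, at 2.63, 4.78, 5.44 and 1.28 CPM in upper-layer against 54.6, 49.3, 43.9 and 64.95 in deep-layer spots (−3.75 ± 0.24 SE, adjusted p = 1.07e-16, edgeR). *Rxfp1*, the relaxin receptor, was at 1.31, 1.19, 1.09 and 0.854 against 12.9, 14.1, 15.4 and 10.5 (−3.51 ± 0.39 SE, adjusted p = 1.60e-09), and was lower than in other spots too (−1.81 ± 0.37 SE, adjusted p = 3.35e-04). Both lay far under the deep-layer range in every section. In this comparison both passed the filter on low counts through the deep-layer spots, so little but a fall could be called. Constant-region genes of immune receptors were among the falls. *Ighm* (chr12:113418826-113422730) was at 9.19, 15.1, 12.5 and 5.12 CPM against 134, 110.3, 42.8 and 103 and *Trbc2* (chr6:41546730-41548181) at 13.1, 19.7, 26.1 and 18.8 against 123, 111, 121 and 207 (−3.08 and −2.77, edgeR adjusted p = 1.25e-17 and 8.54e-20). Which cells these transcripts came from was not tested. The remaining falls were *Urah* (−3.10), *Pdlim1* (−2.99), *Arhgap25* (−2.95), *Spsb1* (−2.78), *Sulf1* (−2.71), an extracellular sulfatase, and *Sstr2* (−2.69), a somatostatin receptor, with edgeR adjusted p of at most 2.37e-09 (*Urah*).

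The rises against deep-layer spots, beside *Gm765*, *Tspan11*, *Rspo1* and *Tmem215*, were *Ddit4l* (2.72), an inhibitor of mTOR signalling, *Prr16* (2.47), *Htr7* (2.32), a serotonin receptor, *Casp1* (2.28), the inflammasome protease, *Fstl4* (2.24) and *Fst* (2.19), follistatin, which binds activins. *Ddit4l* was at 55.1, 56.5, 46.8 and 99.04 CPM against 12.9, 7.04, 10.97 and 9.78 without overlap, and *Htr7* at 6.56, 12.1, 10.3 and 8.54 against 2.35, 2.35, 1.10 and 1.40, also without overlap. *Htr7* passed the filter on low counts through the upper-layer spots, so little but a rise could be called. The edgeR adjusted p was at most 1.29e-04 (*Fst*).

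**Figure D5:**
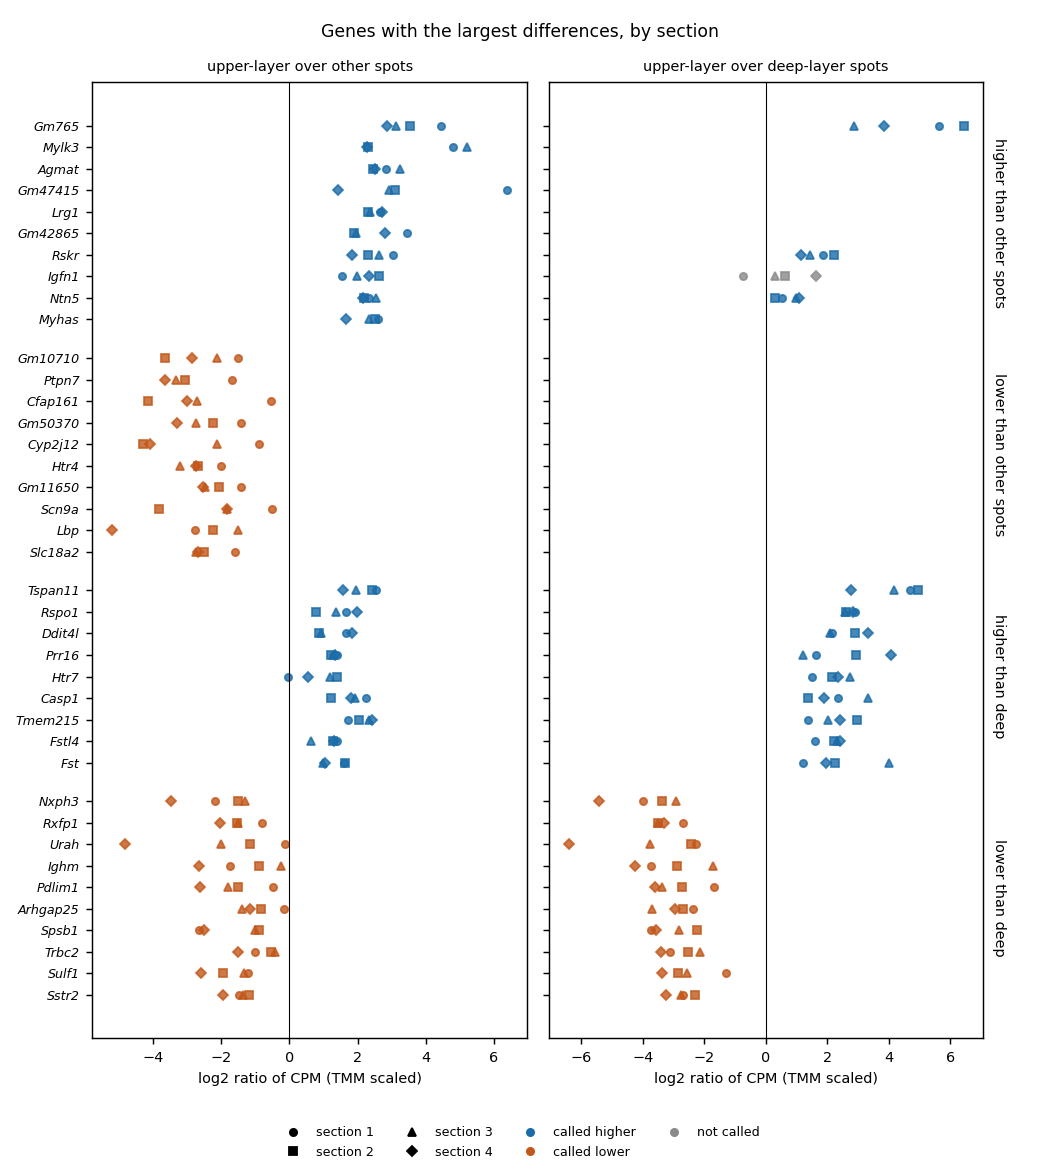
Log2 ratio of CPM (horizontal axis, TMM scaled, with 0.5 UMIs added to each sum) of upper-layer spots over other spots (left) and over deep-layer spots (right) for the genes with the 10 largest rises and falls of each comparison, 1 symbol per section, coloured by the edgeR call. All 4 sections of a gene lie on the same side in the comparison that named it, and genes with few UMIs, such as *Gm47415*, scatter widely.

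Upper-layer spots also varied among themselves. They were divided within each section at the median of their *Slc17a7* CPM, a division made after the data were seen and given with no test. *Slc17a7* averaged 909 ± 101 CPM in the higher group and 544 ± 124 in the lower (SD, n = 4 sections). *Cck* (1741 ± 158 against 1475 ± 255 CPM), *Enc1*, an actin-binding protein of the excitatory list (499.9 ± 59.5 against 396 ± 101), *Nrn1* (256 ± 34.2 against 215 ± 55.9), *Ccn3* (109 ± 5.22 against 76.0 ± 11.4) and *Otof* (14.7 ± 1.28 against 8.01 ± 4.84) were higher in the *Slc17a7*-rich spots of all 4 sections. *Gad1* (244 ± 19.8 against 351 ± 89.6 CPM), *Npy* (432 ± 107 against 595 ± 211), *Penk* (223 ± 83.5 against 408 ± 342), *Pcp4* (580.3 ± 147 against 835 ± 540) and *Mbp* (587 ± 35.9 against 826 ± 367) were lower in all 4. The differences in *Penk*, *Pcp4* and *Mbp* came mostly from section 1, where *Pcp4* was at 686 against 1629 CPM, *Penk* at 233 against 904 and *Mbp* at 596 against 1370. Without section 1, the means were 545 ± 158 against 571 ± 128 CPM for *Pcp4*, 220.1 ± 102 against 243 ± 106 for *Penk* and 584 ± 43.4 against 645 ± 67.9 for *Mbp* (n = 3 sections), each a difference of less than 1 SD of the lower group. *Enc1*, at 528 against 259 CPM in section 1, was at 491 ± 69.1 against 441 ± 52.2 without it. *Nrn1* (267 ± 32.0 against 237 ± 42.9) and *Npy* (467 ± 98.4 against 644 ± 229) also differed by less than 1 SD of the lower group then. *Cck* (1779 ± 170 against 1599 ± 75.9), *Ccn3* (109 ± 6.40 against 81.4 ± 4.64), *Otof* (14.2 ± 0.913 against 7.05 ± 5.44) and *Gad1* (251 ± 17.1 against 308 ± 31.1) differed by more. The SD is that between sections and does not use the pairing within a section, where all of these genes kept 1 direction in all 4 sections. *Vip*, *Rspo1* and *Tmem215* were higher in the *Slc17a7*-rich spots of 2 of 4 sections.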

How the data were processed

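Visium libraries of 4 *Nf1*+/- brain sections were analysed. The authors aligned and counted the reads with Space Ranger on mm10, per the submitters' processing notes, and deposited raw UMI counts for 32285 genes in each spot, without normalization. The study's methods name Space Ranger too, and its version, 1.3.1, was read from the header of the deposited counts. Section numbers only name the sections. No pair of sections agreed within sampling noise (chi-square over its degrees of freedom was 13.6 to 51.8), so none was merged. Totals were 19261710 to 37002379 UMIs per section, and the upper-layer sums held 796942 to 5022450 UMIs, the smallest in section 1.

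Counts were added up for each section and group of spots and scaled to CPM for display (UMIs per 1000000). Tests used edgeR 4.0.16 in R 4.3.3 (TMM, filterByExpr, quasi-likelihood test, section as block, Benjamini-Hochberg over all genes tested). The genes that chose the spots stayed in the library sizes and left the calls, the adjustment and every count. The standard error (SE) was taken as the log2 fold change over the square root of F. Upper-layer and reference sums are paired because each pair was cut from 1 section, and the deviations of a pair correlated at 0.40 to 0.66 (against other spots) and 0.19 to 0.37 (against deep-layer spots). On simulated counts with 200 changed genes, 164 changed and 9 unchanged genes of 14245 were called against other spots, and 174 and 9 of 10516 against deep-layer spots, none in the wrong direction. The changes were of a single size and were planted in genes that were not rare. Counts were drawn from the kind of model that edgeR fits, with a smaller share of changed genes than was called in the data. Error rates for rare genes or for the data themselves cannot be read from it. Intervals are exact (Clopper-Pearson, 95%) and cover counting error only.

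Genes named are the 10 largest rises and falls with an adjusted p under 0.05, 1 direction in all 4 sections and at least 50 UMIs, members of the gene lists, and the genes the study names. A few list members are counted but not reported by name here. The members and lists were chosen with earlier results of these data known. Coordinates and promoter sequences are from RefSeq (GRCm38.p6, the assembly mm10 stands for). A planned comparison of *Rorb*-leaning with *Lamp5*- or *Rasgrf2*-leaning upper-layer spots needed 20 spots per group and was not run. Only 1, 0, 0 and 1 upper-layer spots of sections 1 to 4 were *Rorb*-leaning. A spot leaned to *Rorb* when its *Rorb* UMIs exceeded its summed *Lamp5* and *Rasgrf2* UMIs, with no allowance for the level of each gene. Alternatives were other score and *Slc17a7* thresholds, the score without *Calb1*, other spots with *Slc17a7*, spots matched on total UMIs (in the deep-layer comparison the match left medians of 20766.5 against 12609 UMIs in section 2 and 12500 against 8893.5 in section 3), library totals, no filter on low counts, no section block, DESeq2 1.42.0 and each section left out. The score without *Lamp5* and the division of upper-layer spots by *Slc17a7* were added after the data were seen.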

Additional observations from a re-analysis of the deposited data

Results flagged for a closer look

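Values per section were screened for a single section far from the other 3, which chance flags in about 1 in 20 sets of 4. Of 155 sets (the log2 ratios of named genes and the share of upper-layer spots), 5 were flagged, against 7.75 that chance alone would give. Against other spots, the log2 ratio of *Neurod6* was 0.73 in section 1, where sections 2 to 4 ran from −0.04 to 0.07, and *Nptx1* was at 0.49 in section 4, where the others ran from 0.79 to 0.84. Against deep-layer spots, *Npy* stood at 1.51 in section 3 and between 0.46 and 0.56 in the others, and *Fos* at −1.91 in section 1 and between −0.43 and −0.38 in the others. *Reln* was at 1.13 in section 4 and between 0.25 and 0.35 in the others. The cause was not tested.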

How the results depend on the processing

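Counts of genes higher and lower than in other spots fell from 2022 and 2206 to 1169 and 1208 when the other spots had at least 3 UMIs of *Slc17a7* (97 genes called in the report then had the opposite sign), to 992 and 959 with other spots matched on total UMIs, and lower genes fell to 1300 by DESeq2. Against deep-layer spots DESeq2 called 287 and 283. Without the section as a replicate block, the counts were 1269 and 1361 against other spots and 497 and 446 against deep-layer spots, although the sums of a section are paired. With each section left out in turn, 1503 to 1979 genes were higher and 1488 to 2099 lower than in other spots, 539 to 779 and 469 to 733 against deep-layer spots, and shares of 5.23% to 7.29%. The share was 2.68% at a score of at least 5. Other alternatives stayed within 1.5 times the counts.

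Signs turned only against other spots, for 6 of the named genes, of which *Neurod6*, *Enpp2* and *Nf1* were not called in the report. With other spots of at least 3 UMIs of *Slc17a7*, log2 fold changes were −0.62 for *Neurod6*, −0.0138 for *Tbr1*, −0.0785 for *Fos*, −0.0747 for *Arc* and 0.12 for *Enpp2*. *Neurod6* was at −0.39 with a score of at least 5, −0.0609 without *Lamp5* and −0.13 with matched spots. *Enpp2* was at 0.34 with matched spots and between −0.60 and 0.0916 with each section left out (above 0 without section 1 or section 4), and *Nf1* at 0.0325 with a score of at least 2. Of the alternative values of named genes, 1152 of the 84 genes against other spots and 950 of the 70 against deep-layer spots kept direction and side of the threshold, 60 and 62 lost the call, 2 and 0 gained it and 12 and 0 turned sign, among them *Neurod6*, which then passed the threshold as lower with *Slc17a7* spots (adjusted p = 1.33e-06) and at a score of at least 5 (adjusted p = 0.0329). The cause of these changes was not tested. The planned comparison within upper-layer spots, with its alternatives, was not run. Rare genes rest on few UMIs, such as *Nf1* with 54 in upper-layer spots.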
